A study of Homo sapiens with 2 samples.

Results

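The miR-181 family was followed in Jurkat cells, an established human leukemic T-cell line, by small RNA sequencing of cells overexpressing lnc-CEBPB-13 and of control cells. The members were 6 mature miRNAs picked by name, hsa-miR-181a-5p, hsa-miR-181a-3p, hsa-miR-181a-2-3p, hsa-miR-181b-5p, hsa-miR-181c-5p and hsa-miR-181d-5p, and all 6 were found among the 1450 miRNAs of the deposited table. The remaining 4 arms of the same hairpins, miR-181b-3p, miR-181b-2-3p, miR-181c-3p and miR-181d-3p, were also in the table and are described beside them. lnc-CEBPB-13 is the label of the lncRNA PELATON, and by the study's methods the cells were infected with a lentivirus carrying PELATON or with a control lentivirus and selected with puromycin. Each group is 1 sample, and each deposited group mean split into the whole reads of 2 libraries, called A and B below, with no pairing implied. These libraries held 1177485 to 2663279 reads. No source used here tells if both libraries of one group stem from different cultures, so any p-value measures only the spread between these libraries.

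miR-181 miRNAs are abundant in thymocytes, where in mice miR-181a lowers the levels of several phosphatases that damp T-cell receptor signalling, among them PTPN22, DUSP5, DUSP6 and SHP-2, and so raises the sensitivity of the receptor. A miRNA hairpin is cut into a 5p and a 3p strand. In this family the 5p strand is the usual guide, which pairs with targets mainly through bases 2 to 8, the seed, and most of the 3p strand is discarded.

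The mature sequences are shown because the 4 guides share 1 seed and differ from each other by very little, which bears on how reads are assigned to them. They are written 5′ to 3′ from RefSeq (GRCh38.p14), with the seed in capitals.
miR-181a-5p: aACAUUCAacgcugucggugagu
miR-181b-5p: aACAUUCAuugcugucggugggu
miR-181c-5p: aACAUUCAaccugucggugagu
miR-181d-5p: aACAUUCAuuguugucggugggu

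All 4 guides carried the seed ACAUUCA. miR-181a-5p and miR-181c-5p were 1 edit apart, and so were miR-181b-5p and miR-181d-5p, whereas miR-181a-5p and miR-181b-5p were 3 edits apart. A further miRNA with this seed in RefSeq, miR-4262, was not among the miRNAs of the table. The aligner and the mismatches it allowed are not given in the sources used here, so exchange of reads within the pairs at 1 edit was not tested.

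The 6 hairpins lie in 3 clusters. MIR181A1 (198859044 to 198859153) and MIR181B1 (198858873 to 198858982) are on the minus strand of chromosome 1, with 61 bases between them, in an intron of the lncRNA gene MIR181A1HG. MIR181A2 (124692442 to 124692551) and MIR181B2 (124693710 to 124693798) are on the plus strand of chromosome 9, with 1158 bases between them, in an intron of MIR181A2HG and opposite to an intron of NR6A1. MIR181C (13874699 to 13874808) and MIR181D (13874875 to 13875011) are on the plus strand of chromosome 19, 66 bases apart, in an intron of NANOS3 on the same strand. Positions are on GRCh38, and host genes are those of GENCODE 29.

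The clusters on chromosomes 1 and 9 give the same miR-181a-5p and the same miR-181b-5p, so their guides cannot be told apart by locus. The 3p arms can, and the pair from MIR181A1 and MIR181A2 is shown for that reason, with capitals at the 3 of 22 positions where they differ.
miR-181a-3p: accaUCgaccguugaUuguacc
miR-181a-2-3p: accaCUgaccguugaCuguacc

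miR-181a-5p and miR-181b-5p were among the most abundant miRNAs of these cells, and the normalised read counts of the 6 members differed between the groups by less than 2-fold. hsa-miR-181a-5p, the main guide of the family in T-cell signalling, was the second most abundant miRNA in each of the 4 libraries. Its normalised read counts were 239781 and 236159 in overexpression libraries A and B and 248273 and 258581 in control libraries A and B. Both values of the libraries labelled overexpression were thus a little under both control values, and the log2 ratio between group means was −0.09 (SE 0.17 and adjusted p = 0.848 by limma). All log2 ratios are written as overexpression over control, from group means with a pseudocount of 1, and limma tests, with the standard error (SE) of the fit, compare 2 libraries with 2 over 1115 miRNAs.

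hsa-miR-181b-5p, the guide produced next to miR-181a-5p at both of its loci, had normalised read counts of 90713 and 78599 with overexpression and 85838 and 88321 in control. The overexpression values lay on either side of the control values. The log2 ratio was −0.04 (limma SE 0.17, adjusted p = 0.924).

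The guides of the chromosome 19 cluster were far lower. hsa-miR-181d-5p had normalised read counts of 4394 and 3390 with overexpression and 3859 and 3795 in control, and its groups overlapped (log2 ratio 0.02, limma adjusted p = 0.979). hsa-miR-181c-5p had 1874 and 1545 with overexpression and 1402 and 1570 in control. Its overexpression library B lay below control library B, so the groups overlapped, with a log2 ratio of 0.20 (limma SE 0.18, adjusted p = 0.648).

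Of the locus-specific 3p arms of miR-181a, the passenger strands of the most abundant guide, hsa-miR-181a-3p from chromosome 1 had normalised read counts of 3491 and 3621 with overexpression and 3890 and 2873 in control. The control libraries enclosed both overexpression values (log2 ratio 0.07, limma adjusted p = 0.862). hsa-miR-181a-2-3p from chromosome 9 had 501 and 508 with overexpression and 636 and 574 in control. Both overexpression values were under both control values, with a log2 ratio of −0.26 (limma SE 0.19, adjusted p = 0.555).

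**Figure D1:**
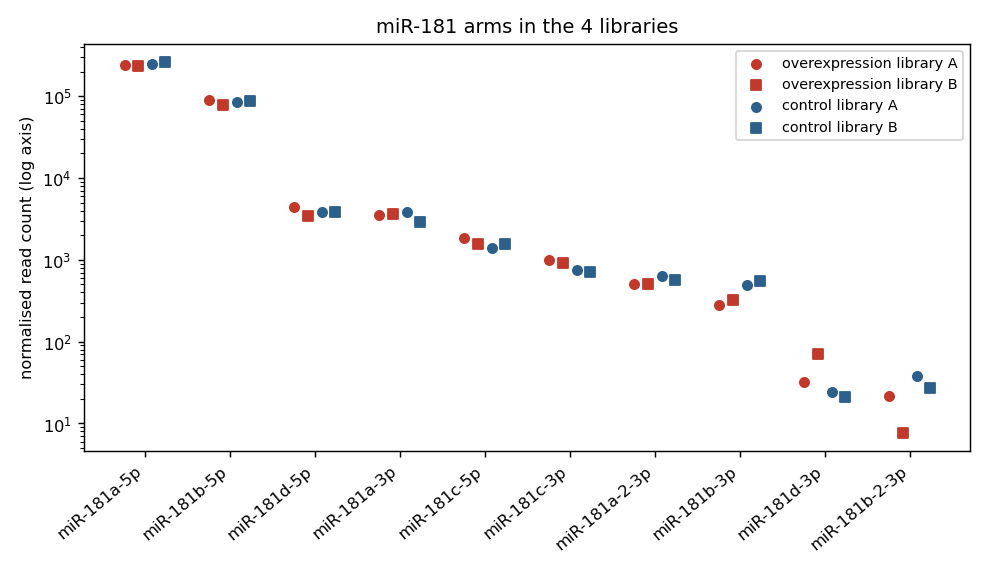
Normalised read counts (log axis) of the 10 miR-181 arms, ordered by their mean, with 1 point per library, overexpression in red and control in blue. miR-181a-5p and miR-181b-5p stand above all others, between 78599 and 258581, and the groups are visibly apart in miR-181b-3p, between 279 and 322 with overexpression and between 489 and 558 in control.

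None of the 6 members differed by 2-fold, against 30.3% of the 1115 miRNAs with a mean of at least 1 (15.6% higher and 14.7% lower). Among the 176 miRNAs with a mean of at least 500, as all 6 members had, 11.4% differed by 2-fold. None of the members passed an adjusted p of 0.05 in limma, against 4.93% of the 1115. No member had a raw p under 0.05 either in this fit, the smallest being 0.207 for miR-181a-2-3p. The 95% limma intervals of the members lay within 0.620-fold and 1.53-fold, so a 2-fold difference in either direction was outside all 6 of them. With libraries scaled to total reads, miR-181c-5p had a raw limma p of 0.0343 (adjusted p = 0.225). The 95% interval of its log2 difference was then 0.0435 to 0.828. In normalised read counts the groups did not overlap in 2 of 6 members, miR-181a-5p and miR-181a-2-3p, both lower with overexpression. Over all tested miRNAs, 23.8% were lower in this way and 46.2% did not overlap in either direction. These calls depended on the scaling. As a share of all miRNA reads, miR-181a-5p was higher with overexpression (12.86% and 12.95%, against 11.86% and 11.44% in control). The shares of miR-181a-3p, miR-181b-5p, miR-181c-5p and miR-181d-5p were also higher without overlap, and those of miR-181a-2-3p overlapped. The median absolute log2 ratio was 0.082 over the 6 members, 0.61 over all tested miRNAs and 0.40 over the 176 miRNAs with a mean of at least 500.

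**Figure D2:**
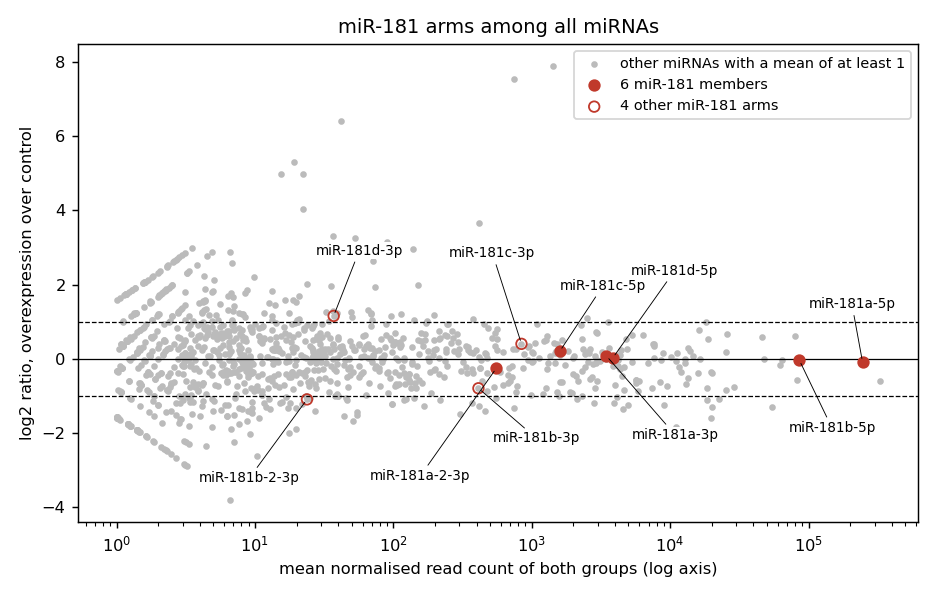
Log2 ratio of overexpression over control against the mean normalised read count (log axis) for the 1115 miRNAs with a mean of at least 1. Filled red points are the 6 members, open red points the 4 other miR-181 arms, and dashed lines mark 2-fold; every member lies between −0.26 and 0.20, while miR-181b-2-3p and miR-181d-3p lie just past the dashed lines.

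Other highly expressed miRNAs did not all have such small log2 ratios. Among the 12 miRNAs with the highest means, miR-181b-5p had the second and miR-181a-5p the fourth smallest absolute log2 ratio, after miR-128-3p (−0.01) and miR-191-5p (−0.05) respectively. miR-92a-3p, the most abundant miRNA and encoded beside miR-17-5p in a growth-promoting cluster, had a log2 ratio of −0.60 (limma adjusted p = 0.135), and let-7f-5p, of the growth-restraining let-7 family, had −1.30 (limma adjusted p = 0.0116).

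The sign of these small differences depended on the scaling between libraries for 4 of the 6 members, miR-181a-5p, miR-181a-3p, miR-181b-5p and miR-181d-5p, whereas miR-181c-5p was above 0 and miR-181a-2-3p under 0 with each of the 5 scalings. As a share of all miRNA reads the 10 arms together took 18.4% and 17.8% in the overexpression libraries and 16.5% and 15.8% in the control libraries, so the share was higher with overexpression, while the summed normalised count of the 10 arms had a log2 ratio of −0.07. With libraries scaled to total reads, which moved the median log2 ratio over these miRNAs by 0.21, the log2 ratio of miR-181a-5p was 0.15 and that of miR-181b-5p 0.20, and with upper-quartile scaling, which moved it by −0.15, they were −0.25 and −0.19. No direction is therefore given for the family as a whole. The largest absolute value of any member under the 4 other scalings was 0.44, for miR-181c-5p with total reads, still under 2-fold.

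**Figure D3:**
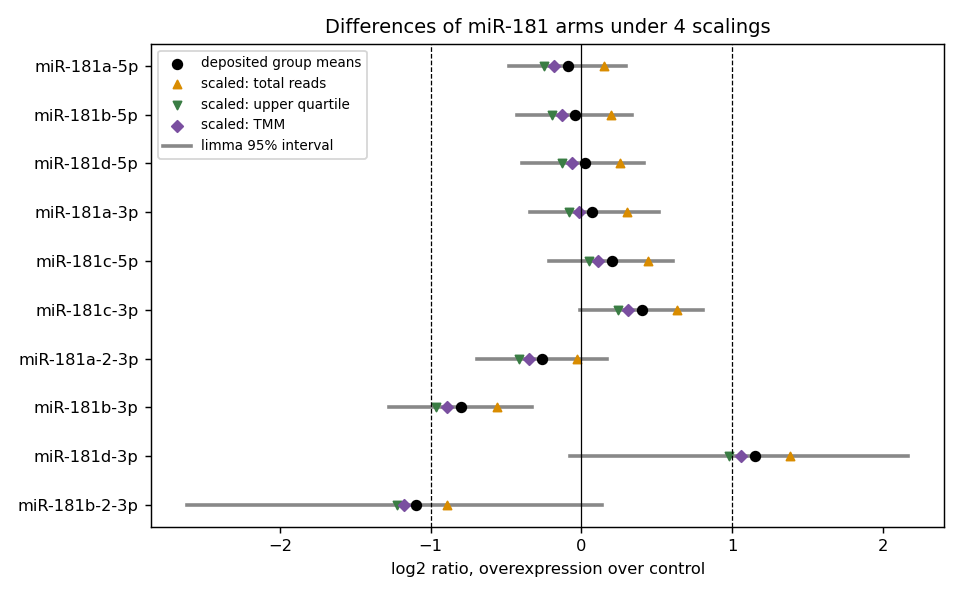
Log2 ratio of overexpression over control for each miR-181 arm from the deposited group means (black) and with libraries scaled to total reads, upper quartile or TMM (colours), with the limma 95% interval in grey and dashed lines at 2-fold. The points of the 6 members stay between −0.42 and 0.44, and the colours shift all arms together.

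Ratios of reads within a library do not depend on that scaling, and 9 of them were compared between the groups by an exact permutation test over the 4 libraries. With 2 libraries against 2 this two-sided exact test cannot go below p = 0.333, so none of the 9 could pass a threshold of 0.05, and after Benjamini-Hochberg adjustment the lowest p was 0.600. The efficiency of adapter ligation can differ between miRNA sequences, so a ratio between 2 miRNAs is one of reads and not of molecules.

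The miR-181a/b guides far outnumbered the miR-181c/d guides in all 4 libraries. The summed reads of miR-181a-5p and miR-181b-5p exceeded those of miR-181c-5p and miR-181d-5p by 52.7-fold and 63.8-fold in the overexpression libraries and by 63.5-fold and 64.7-fold in the control libraries. Overexpression library A stood apart from the other 3, and the log2 difference between the groups was 0.15 with a spread of 0.20 (exact permutation p = 0.667). Without overexpression library A the log2 difference was 0.01.

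Within the clusters, miR-181a-5p exceeded miR-181b-5p by 2.64-fold and 3.005-fold with overexpression and by 2.89-fold and 2.93-fold in control, so the overexpression libraries enclosed the control libraries (exact permutation p = 1.00). miR-181a-5p made up 71.2% to 73.9% of the reads of the 4 guides, miR-181b-5p 24.6% to 26.9%, miR-181d-5p 1.06% to 1.30% and miR-181c-5p 0.413% to 0.556%. In the chromosome 19 pair the order was turned, with the b-like guide in excess. miR-181d-5p exceeded miR-181c-5p by 2.35-fold and 2.19-fold with overexpression and by 2.75-fold and 2.42-fold in control, which did not overlap (exact permutation p = 0.333), for a log2 difference of −0.18 with a spread of 0.15.

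The locus-specific arms were dominated by the chromosome 1 cluster. Of the reads of miR-181a-3p and miR-181a-2-3p together, the chromosome 9 arm miR-181a-2-3p held 12.6% (exact 95% binomial interval 11.6% to 13.6%) and 12.3% (11.1% to 13.6%) with overexpression, and 14.05% (13.1% to 14.98%) and 16.6% (15.5% to 17.8%) in control. Both overexpression values were lower, but the 2 control libraries differed from each other by more than the overexpression libraries differed from control library A. The log2 difference of the ratio was −0.33 with a spread of 0.21 (exact permutation p = 0.333), and leaving out control library A gave −0.49 whereas leaving out control library B gave −0.20. Intervals cover counting error only.

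For miR-181b the chromosome 9 share was lower than for miR-181a in every library. Its chromosome 9 arm miR-181b-2-3p held 7.25% and 2.35% of the miR-181b 3p reads with overexpression and 7.28% and 4.64% in control, and the groups overlapped (exact permutation p = 0.667). The log2 difference of −0.35 was 0.32 without overexpression library B and −1.38 without overexpression library A. The value of 2.35% rested on 5 reads of miR-181b-2-3p in overexpression library B (exact 95% binomial interval 0.766% to 5.39%).

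The balance between guide and passenger strands differed greatly from hairpin to hairpin. The 5p reads of miR-181a exceeded its 3p reads by 60.1-fold and 57.2-fold with overexpression and by 54.9-fold and 75.03-fold in control, and the control libraries enclosed the overexpression libraries (exact permutation p = 1.00). For miR-181c the excess was only 1.86-fold and 1.70-fold with overexpression and 1.86-fold and 2.24-fold in control, so that 30.9% to 37.1% of the reads of its hairpin came from the 3p arm. The miR-181c groups did not overlap, but only narrowly, with a log2 difference in the 3p to 5p ratio of 0.20 and a spread of 0.21 (exact permutation p = 0.333). miR-181d, which lies beside it in the same intron, had a 5p excess of 138-fold and 47.6-fold with overexpression and 161-fold and 179-fold in control. Its log2 difference of 1.16, with a spread of 1.09 (exact permutation p = 0.333), was 0.29 without overexpression library B and 1.83 without overexpression library A.

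**Figure D4:**
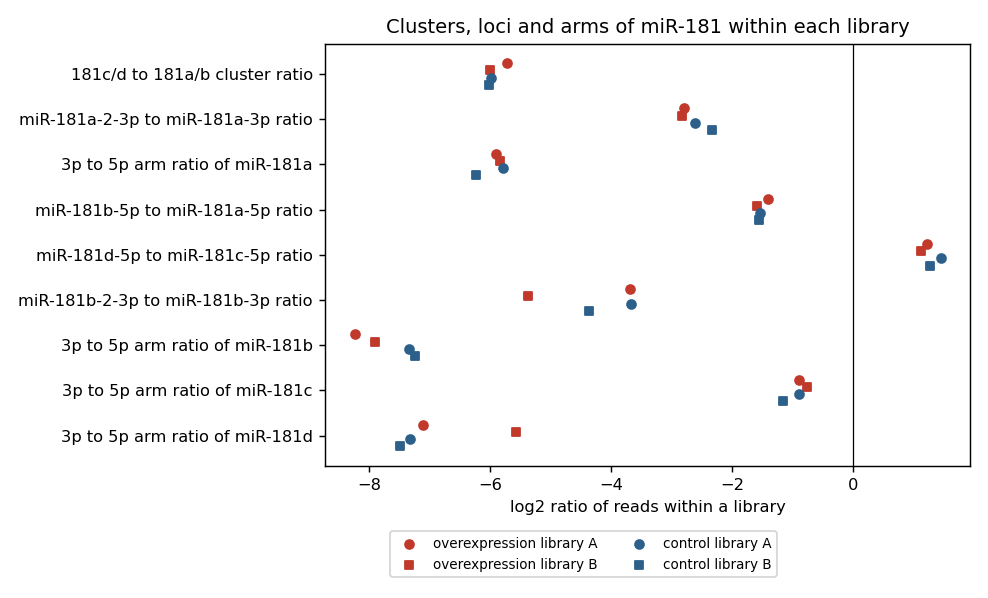
Log2 ratio of reads within each library for the 9 ratios of clusters, loci and arms, with overexpression in red and control in blue and 1 point per library. The 3p to 5p ratio of miR-181b lies between −8.24 and −7.90 with overexpression and between −7.35 and −7.24 in control, while the ratio of miR-181c/d to miR-181a/b stays near −6 in 3 of the 4 libraries.

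The 4 arms that are not among the 6 members, all of them 3p, had larger absolute log2 ratios than any member, from 0.40 to 1.15. miR-181b-3p, the passenger strand of MIR181B1 on chromosome 1, had normalised read counts of 279 and 322 with overexpression and 489 and 558 in control. All overexpression values were well under the control values. The log2 ratio was −0.80 (limma SE 0.21, adjusted p = 0.0741). It missed the threshold over all 1115 miRNAs and passed it (adjusted p = 0.0265) over the 362 miRNAs above a mean of 50, and with total-read scaling limma gave an adjusted p of 0.188. The 5p excess of miR-181b was 302-fold and 238-fold with overexpression and 163-fold and 151-fold in control, a log2 difference of −0.78 in the 3p to 5p ratio with a spread of 0.25 (exact permutation p = 0.333, adjusted 0.600). Left-out libraries gave log2 differences from −0.95 to −0.61.

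The chromosome 19 passenger strands lay on the other side of 0. miR-181c-3p had normalised read counts of 1010 and 909 with overexpression and 752 and 702 in control, 2 groups that did not overlap (log2 ratio 0.40, limma SE 0.18, adjusted p = 0.289). miR-181d-3p had 31.8 and 71.3 with overexpression and 24.01 and 21.2 in control, from 25 to 46 reads per library. Its log2 ratio of 1.15 (limma difference 1.05, SE 0.49, adjusted p = 0.311) was past 2-fold but was 0.47 without overexpression library B. miR-181b-2-3p, from chromosome 9, had 21.8 and 7.75 with overexpression and 38.4 and 27.2 in control, from 5 to 48 reads. Its log2 ratio of −1.10 (limma difference −1.24, SE 0.60, adjusted p = 0.331) was −0.57 without overexpression library B and −1.95 without overexpression library A. Thus 2 of the 4 other arms were past 2-fold, with few reads each, against 30.3% of all tested miRNAs, and 0 of 4 passed limma at an adjusted p of 0.05. The libraries of all 4 did not overlap between the groups, 2 lower and 2 higher, beside 46.2% of all tested miRNAs.

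By level, the 10 arms ranked miR-181a-5p, miR-181b-5p, miR-181d-5p, miR-181a-3p, miR-181c-5p, miR-181c-3p, miR-181a-2-3p, miR-181b-3p, miR-181d-3p and miR-181b-2-3p. Neighbours in this order whose libraries overlapped were miR-181d-5p and miR-181a-3p, miR-181a-2-3p and miR-181b-3p, and miR-181d-3p and miR-181b-2-3p. The 2 libraries of a group differed by more than counting error (exact 95% interval of their ratio without 1) in 8 of 12 comparisons for the 6 members. This share was not computed over all miRNAs. The interval narrows with more reads, so even a ratio of 1.015 for miR-181a-5p with overexpression counted. The largest was a ratio of 1.35 (1.30 to 1.42) between control libraries A and B for miR-181a-3p.

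Among 356 candidate miRNAs above a mean of 50, those whose pattern over the 4 libraries was nearest to miR-181a-5p were miR-96-5p, let-7d-3p and miR-625-3p, with root mean square differences of 0.019, 0.034 and 0.044 in centred log2 normalised counts. For miR-181c-5p they were miR-182-5p, miR-1248 and miR-27b-3p, at 0.043, 0.043 and 0.051. These are descriptions over 4 libraries, and all miRNAs of a library share its size factor.

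A list of 20 other miRNAs with roles in thymocytes and T cells gave a background for the family. At an adjusted p of 0.05 in limma, 1 of them rose and 4 fell (miR-29b-3p, miR-29a-3p, miR-17-5p and miR-142-5p), beside 1.88% higher and 3.05% lower over all tested miRNAs (21 and 34, but 17 and 8 with total-read scaling), and the median log2 ratio of the list was −0.37 against 0.06 over all. The highest log2 ratio was 0.91 for miR-146a-5p, which restrains NF-kB signalling (limma SE 0.17, adjusted p = 0.025). The lowest was −1.32 for miR-17-5p, encoded beside miR-92a-3p (limma SE 0.29, adjusted p = 0.043), and it was −0.81 without control library B. miR-128-3p and miR-185-5p, at log2 ratios of −0.01 and 0.15, were close to the miR-181 guides.

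Markers of leukocytes were present in all libraries, with 6 of 6 listed miRNAs in the table and a summed normalised count of 28840 to 41514. Of these, miR-155-5p was near the floor, at 2.72 and 10.8 with overexpression and 3.20 and 11.03 in control. The myeloid marker miR-223-3p had 4242 and 3618 with overexpression and 4672 and 4845 in control. Markers of heart and skeletal muscle moved with the groups. Of 7 listed, 5 were in the table. With overexpression, 4 of them were past 2-fold higher and past the limma threshold, beside 15.6% and 1.88% of all tested miRNAs respectively. The 5 had summed normalised counts of 4078 and 4891 with overexpression and 56.0 and 33.1 in control, where miR-206 and miR-133b had 0 reads. That sum was 0.219% and 0.268% of the overexpression reads, against 11.4% to 12.9% for miR-181a-5p in the 4 libraries. Smooth muscle and fibroblast markers summed to 437 and 502 with overexpression and to 115 and 151 in control, and red blood cell markers to 769 and 1126 and to 158 and 121. Most of the red blood cell sum with overexpression was miR-486-5p (631 and 906, against 65.6 and 55.2 in control). miR-451a was also higher, at 122 and 194 against 75.2 and 60.2 (limma adjusted p = 0.0924). miR-144-3p overlapped between the groups, at 16.3 and 26.3 against 16.8 and 5.94. Epithelial markers summed to 881 and 741 with overexpression and to 997 and 1056 in control, and the liver marker miR-122-5p had 52.7 and 183 and 32.02 and 28. Both samples are labelled as Jurkat cells, so these markers are not read as other cell types being present, and the source of their reads was not tested. Their part in the miR-181 values was not tested either. For any marker, fewer cells that carry it cannot be told apart from less of its RNA per cell. The neuronal markers went opposite ways, with miR-9-5p at 4124 and 4058 with overexpression and 6738 and 8370 in control (log2 ratio −0.88, limma adjusted p = 0.0268) and miR-124-3p at 35.4 and 52.7 and at 0 and 0.848 (limma adjusted p = 0.0108). PELATON itself is not measured by the table, so the labels of the libraries were not checked against it, and every direction given here is that of the labels. hsa-miR-10b-5p, whose regulation by PELATON the study examined, was higher under the overexpression label, at normalised read counts of 97.2 and 96.1 against 16.01 and 2.55 under the control label (limma adjusted p = 0.0269).

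In GENCODE 29 the PELATON gene carries the name SMIM25, with transcripts of 539 to 2010 nucleotides. TGAATGT, complementary to bases 2 to 8 of the miR-181 guides, had 0 matches on the sense strand of its 5 transcripts. The shorter GAATGT, which is contained in TGAATGT and pairs with bases 2 to 7, had 1 match in each of 4 transcripts and 0 in the fifth. Among GENCODE 29 lncRNA transcripts within 10% of their length, GAATGT was held by 14.5% for the 539-nucleotide transcript, 28% for that of 1058, 41.7% for that of 1808 and 46.2% for that of 2010 nucleotides, the 4 with a match. TGAATGT was held by 4.95% to 18.7% of the lncRNA transcripts of like length to the 5. These matches describe letters only, and the sequence carried by the lentivirus is not given in the sources used here.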

How the data were processed

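Small RNA libraries of Jurkat cells were sequenced for 1 control and 1 overexpression sample. By the study's methods a small RNA kit was used, whereas GEO's labels give a kit for mRNA. The authors counted reads per mature miRNA (GRCh38.p14 by the submitters' notes), divided them by DESeq size factors and deposited, as signal values, the mean normalized count of each group. Aligner and trimming are not given in the sources used here. The deposited fold change and p-value columns were not used.

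Each group mean was split into whole reads of 2 libraries (1 solution for each of 1450 values, relative tolerance 1e-12, absolute 1e-09). Size factors recomputed from 788 miRNAs matched the recovered 1.10, 0.645, 1.25 and 1.18. Log2 ratios used a pseudocount of 1, with 2-fold and a mean of at least 1 as the rule. limma 3.58.1 (R 4.3.3, trended prior) was run on log2 normalized counts plus 1 of the 4 libraries, with Benjamini-Hochberg adjustment over 1115 miRNAs. Recovery and limma were tested on simulated data. The spread of a difference is the root of the summed squared SDs of both groups. Exchange of reads between near-identical members was not tested.

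The members, lists and tests were chosen with earlier results of these data known. Named were the 6 members, the other miR-181 arms, miRNAs with the same seed and the extremes of a list of 20 T-cell miRNAs. The 3 miRNAs nearest in pattern to miR-181a-5p and to miR-181c-5p were named too. The top miRNAs, the other T-cell miRNAs, miR-10b-5p, miR-1291, miR-6775-3p and the marker miRNAs were named after their values were seen. Alternatives were other scalings, pseudocounts, filters, thresholds and each library left out.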

Additional observations from a re-analysis of the deposited data

How the results depend on the processing

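With libraries scaled to total reads, the log2 ratio was 0.15 for miR-181a-5p, −0.026 for miR-181a-2-3p, 0.20 for miR-181b-5p and 0.44 for miR-181c-5p, and limma called 25 of 1129 miRNAs, 17 higher and 8 lower, in place of 55, 21 higher and 34 lower. Without the 10 most abundant miRNAs in the total, the log2 ratio was 0.14 for miR-181a-5p, −0.038 for miR-181a-2-3p and 0.18 for miR-181b-5p. With the upper quartile it was −0.25 for miR-181a-5p, −0.42 for miR-181a-2-3p and −0.19 for miR-181b-5p, and with TMM −0.18 for miR-181a-5p. The 2-fold count over all miRNAs, 338, was 121 with a pseudocount of 5, 578 at 1.5-fold, 70 at 4-fold and 52 at a mean of at least 50, and limma called 86 of 362 miRNAs with that filter. Of the miRNAs past 2-fold, 51.5% were higher, and this was 68.1% with total reads, 67.5% without the top 10, 44.3% with the upper quartile and 46.2% with TMM. No member was past 2-fold or called by limma under any alternative that was run, 1.5-fold included. miR-181d-3p fell under 2-fold with the upper quartile (log2 ratio 0.98) and without overexpression library B (0.47). miR-181b-2-3p did so with total reads (−0.89), without the top 10 (−0.90) and with a pseudocount of 5 (−0.93). It also did so without overexpression library B (−0.57) and without control library A (−0.84).

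With each library left out, log2 ratios ranged from −0.12 to −0.06 for miR-181a-5p, −0.13 to 0.31 for miR-181a-3p, −0.33 to −0.18 for miR-181a-2-3p, −0.15 to 0.06 for miR-181b-5p, 0.06 to 0.33 for miR-181c-5p and −0.18 to 0.20 for miR-181d-5p. The 2-fold count over all miRNAs ranged from 335 to 444. The cluster ratio ranged from 0.01 to 0.28, that of the miR-181a 3p arms from −0.49 to −0.20 and the 3p to 5p ratio of miR-181a from −0.10 to 0.36. The cause of these shifts was not tested. No paired analysis was possible because the labels number no replicates. Depth limited miR-181b-2-3p and miR-181d-3p, at 5 to 48 reads per library.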
